A study of Talinum fruticosum with 24 samples.

Results

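Steady features were defined here as leaf transcripts with many reads whose level hardly moved between harvests or between mock and abscisic acid (ABA) treatment. Members were chosen by their levels in CPM (counts per 1000000 counts of the library, its total multiplied by a TMM factor for composition), averaged on the log2(CPM + 1) scale over the 2 plants of each of 12 groups. A feature was a member if its mean over the 24 libraries was at least 50 CPM and its highest and lowest group means lay at most 0.6 log2 units (1.52-fold) apart. The rule found 152 features. They were drawn from 2830 features with a mean of at least 50 CPM, from 16461 with a mean count of at least 10 and from 20617 with any count. The group means chose the members, so the small range and the small ABA differences are descriptions of the choice and not findings.

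The libraries came from leaves of Talinum triangulare (also named Talinum fruticosum), a herb that can switch from ordinary photosynthesis to crassulacean acid metabolism, a water-saving mode with carbon uptake in the dark. Plants aged 2 months and kept in cycles of 12 h light and 12 h dark were sprayed with mock solution or with 200 µM ABA, 4 h into the light period and again 4 h later. Both sprays contained Tween-20, so the mock leaves were sprayed leaves, and all plants were kept watered. The series record gives both sprays the same methanol content, whereas the treatment protocol gives another content for the mock spray and names no methanol in the ABA spray. Harvests were timed from the first spray, at 40, 80 and 160 min and then at 320, 640 and 1280 min, with 2 plants per treatment and harvest and 2 treated leaves pooled per plant. Leaves of the first 4 harvests were in the light, those of 640 min had spent 2.67 h in darkness and those of 1280 min had been lit again for 1.33 h, so elapsed time, time of day and number of sprays cannot be told apart.

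ABA is the hormone through which plants respond to water shortage, and it acts on leaf transcripts through soluble receptors, protein phosphatases and protein kinases. A large share of leaf transcripts also follows the daily cycle of light and the circadian clock. Transcripts that keep an even level through such changes are commonly sought as reference genes, against which other transcripts are measured, and many known ones serve basic cell functions such as translation, the cytoskeleton and protein turnover. The files used here do not pair identifiers with gene names, so which functions the 152 features serve is not known here, no sequence is shown, and only a few identifiers are given. Transcript lengths were not used here either, so CPM ranks features by their share of the reads and not by transcript abundance, and abundant features below are those with a mean of at least 50 CPM.

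Library totals ran from 16577222 to 26846579 counts. No member had fewer than 646 counts in any library, and the expected counting error of a member's single value had a median of 0.036 log2 units. Among the 24 libraries, mock plant 2 at 80 min stood apart in these features. It held the highest or the lowest of the 24 values for 60 of the 152 members (39.5%), 31 times the highest and 29 times the lowest. It did so for 12.5% of the 2678 other features with a mean of at least 50 CPM, where mock plant 1 at 1280 min led with 21.8%. The rule keeps group means of members close, so their extremes fall more readily where plants of a group differ. The 2 shares are therefore descriptions. Without it and with the scaling kept, the rule found 158 features, of which 143 were among the 152, and 9 members passed the range limit. The bulk libraries cannot tell a change in the cells that make up a leaf from a change in the RNA of each cell.

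Most members lay near the lower limit of the rule on level. Their mean levels ran from 50.6 to 1163 CPM with a median of 78.4 CPM, against a median of 97.9 CPM for the 2678 other features. Steady features made up 112 of 1484 features between 50 and 100 CPM (7.55%) and 35 of 729 between 100 and 200 CPM (4.80%). At 200 to 500 CPM there were 3 of 364 (0.824%), and at 500 CPM and above 2 of 253 (0.791%). The share of steady features was lower in the classes of higher CPM.

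Range of the group means rose smoothly through the limit, so the 152 members did not form a separate class. Among the 2830 features, 7 had a range of at most 0.3, 20 lay from there to 0.4, 52 to 0.5, 73 to 0.6, 87 to 0.7 and 75 to 0.8. The median range was 0.50 in members and 1.96 in the other features. KMT14605, with a range of 0.598, was the last feature inside the range limit, and KMT07904, with 0.601, was the first outside. Without mock plant 2 at 80 min their ranges were 0.57 and 0.81. KMT05296, with a mean of 50.6 CPM, was the last inside the level limit, and KMT02959, with 49.8 CPM and a range of 0.41, was the first outside. A further 1004 of 13631 features with lower mean levels met the range limit and were not members. Mean levels of the 13631 went down to 0.386 CPM. There the pseudocount of 1 narrows the range, so 0.6 can stand for more than 1.52-fold.

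**Figure D1:**
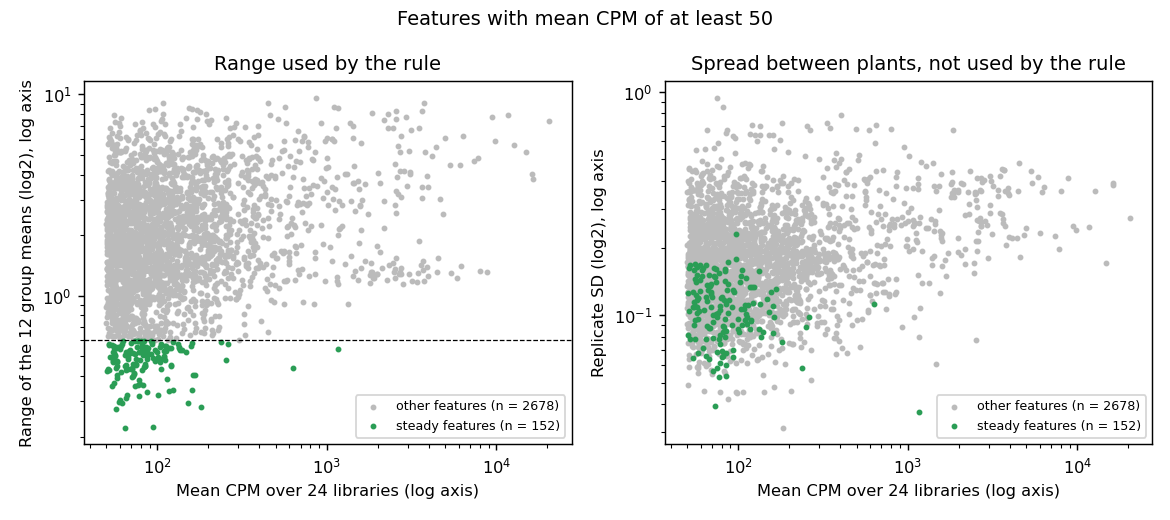
Each point is a feature with a mean of at least 50 CPM, 152 steady features in green and 2678 others in grey. The left panel plots the range of the 12 group means that the rule used (dashed line at 0.6), and the right panel plots the replicate SD within groups, where the steady features lie in the lower part of the cloud with a median of 0.108 against 0.171.

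The least variable members show what steady meant in single plants. KMT02534 had the smallest range of group means, 0.22 log2 units. In mock leaves KMT02534 stood at 64.2 and 73.2 CPM at 40 min, 78.6 and 49.5 at 80 min, 65.1 and 61.3 at 160 min, 68.3 and 67.9 at 320 min, 62.0 and 64.2 at 640 min, and 56.7 and 60.6 at 1280 min. In ABA leaves it stood at 60.3 and 68.6 CPM at 40 min, 76.1 and 61.1 at 80 min, 65.1 and 67.0 at 160 min, 58.1 and 68.5 at 320 min, 61.4 and 57.2 at 640 min, and 67.7 and 67.8 at 1280 min. The highest and the lowest of these 24 values were the 2 mock plants of 80 min, which averaged to a middling 64.0 ± 20.6 CPM (SD, n = 2), so the small range of this feature rested on the mean of a discordant pair. ABA and mock values overlapped at 3 harvests, both ABA plants lay above both mock plants at 2 and below them at 1. Without mock plant 2 at 80 min its range was 0.42.

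KMT12653 was second, with a range of 0.22, and mock plant 2 at 80 min was again its lowest library. Its mock values were 82.4 and 101 CPM at 40 min, 100.5 and 72.5 at 80 min, 99.9 and 98.4 at 160 min, 98.1 and 102 at 320 min, 89.3 and 101 at 640 min, and 94.96 and 95.17 at 1280 min. With ABA it stood at 92.8 and 88.0 CPM at 40 min, 92.9 and 95.8 at 80 min, 98.8 and 98.1 at 160 min, 92.2 and 106 at 320 min, 93.6 and 99.6 at 640 min, and 88.1 and 91.6 at 1280 min. The ABA and mock values overlapped at 5 of the 6 harvests. Without mock plant 2 at 80 min the range of KMT12653 was 0.16.

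Over the 24 single libraries the order was different. The smallest spread was that of KMS99177, named after its values were seen, whose highest and lowest libraries lay 0.38 log2 units apart and whose group means placed it 4th. In mock leaves KMS99177 stood at 183 and 187 CPM at 40 min, 177 and 207 at 80 min, 172 and 167 at 160 min, 170.4 and 168 at 320 min, 188 and 186 at 640 min, and 219 and 193 at 1280 min. Its ABA values were 181 and 187 CPM at 40 min, 169 and 191 at 80 min, 177 and 170.4 at 160 min, 179 and 182 at 320 min, 178 and 171 at 640 min, and 173 and 187 at 1280 min. The highest value came from a mock plant at 1280 min, and the remaining values lay within 167 to 207 CPM. Over the 24 libraries, 49 of the 152 members kept within 0.6 log2 units, 151 kept within 1, and the median spread was 0.66, against 2.22 in the other abundant features. Without mock plant 2 at 80 min 76 members kept within 0.6.

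KMT01180 had the highest mean level of the members, 1163 CPM, and it also had the lowest replicate SD, 0.037 log2 units. In mock leaves KMT01180 stood at 1220.2 and 1214 CPM at 40 min, 1194 and 1093 at 80 min, 1023 and 1025 at 160 min, 1091 and 1076 at 320 min, 1053 and 1017 at 640 min, and 1495 and 1465 at 1280 min. With ABA it stood at 1267 and 1246 CPM at 40 min, 1298 and 1292 at 80 min, 1082 and 1121 at 160 min, 1049 and 985 at 320 min, 1036 and 1029 at 640 min, and 1254 and 1285 at 1280 min. The 2 plants of a group lay close together at every harvest, so its range of 0.54 log2 units lay between groups. Mock leaves at 1280 min were highest and ABA leaves at 320 min lowest, which differ in both harvest and treatment. Both ABA plants lay above both mock plants at 3 harvests and below them at 2, and they overlapped at 1. KMT08173, the second highest at 632 CPM, had a range of 0.44 and a replicate SD of 0.11.

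**Figure D2:**
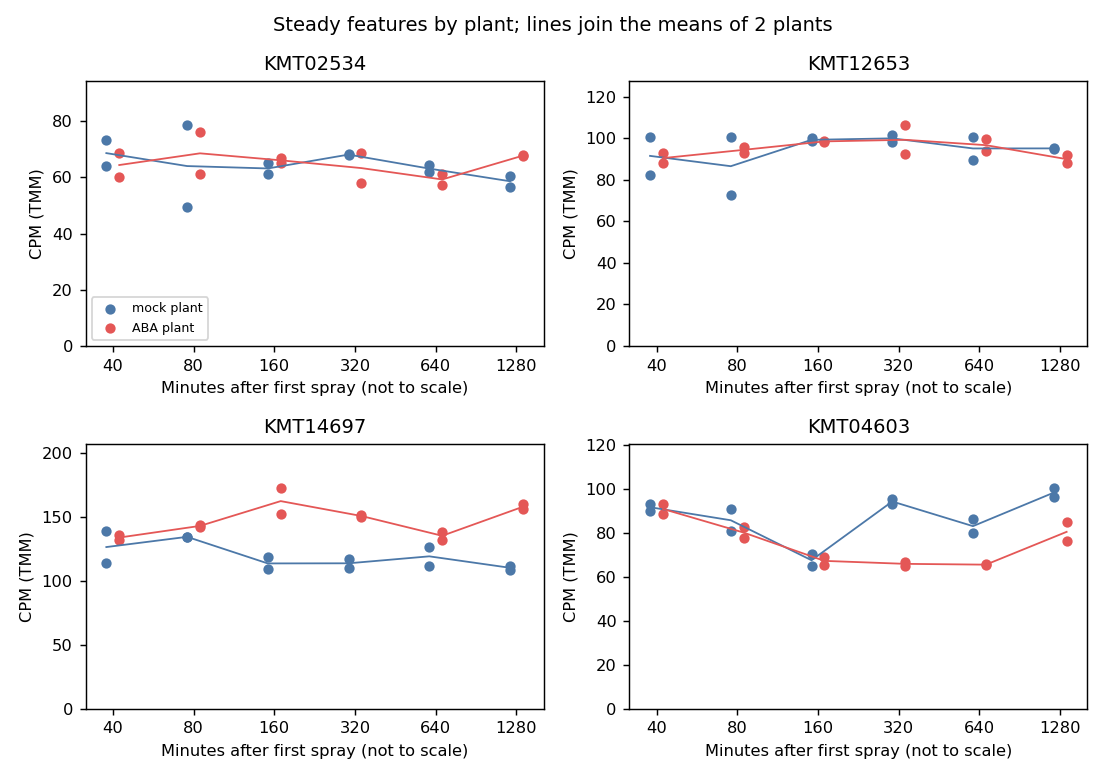
CPM of 4 steady features in every plant (points, mock in blue and ABA in red) by minutes after the first spray, with lines joining the means of 2 plants and the vertical axis starting at 0. KMT02534 and KMT12653, the features with the smallest ranges, have mock and ABA plants that overlap at 3 and at 5 of the 6 harvests, while KMT14697 lies higher and KMT04603 lower with ABA at later harvests, within the 0.6 log2 units that the rule allows.

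Plants of the same group differed less in the steady features than in other abundant features, a measure that the rule does not read directly, although wide differences between plants also scatter the group means. The pooled SD within groups had a median of 0.108 log2 units in the 152 members (quartiles 0.087 and 0.134, highest 0.230) and of 0.171 in the 2678 others. It was below the median of the others in 149 of the 152 members. Within both CPM classes that held most members the order was the same, with medians of 0.109 against 0.156 at 50 to 100 CPM and 0.106 against 0.166 at 100 to 200 CPM. Low replicate spread was not particular to these features, since 1965 of the 2678 others had an SD no higher than the highest member. The highest replicate SD belonged to KMS98186, whose mock plants of 80 min stood at 78.6 and 152 CPM. Without plant 2 of that pair the SD of KMS98186 fell from 0.230 to 0.134, and 1253 of the 2678 others then had an SD no higher than the highest member. Replicate SD was a median of 3.12 times the counting error in members and 4.77 times in the others.

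The spread between plants was uneven over the 12 groups. In members the median difference between the 2 plants was 0.27 log2 units in mock leaves at 80 min, 0.15 in ABA leaves at 1280 min, 0.12 in mock leaves at 40 min and between 0.05 and 0.10 in the other 9 groups. Mock leaves at 80 min were the only group in which the members differed more than the other abundant features, 0.27 against 0.25, and the only group in which any member differed by more than 0.6, with 12 such members. Plant 2 was the higher in 82 of the 152 members there and the lower in 70, so both directions were common. Without that plant the median replicate SD was 0.087 in members and 0.156 in the others. In ABA leaves at 1280 min the members differed less than the others, 0.15 against 0.30, and plant 2 was the higher in 114 of 152.

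**Figure D3:**
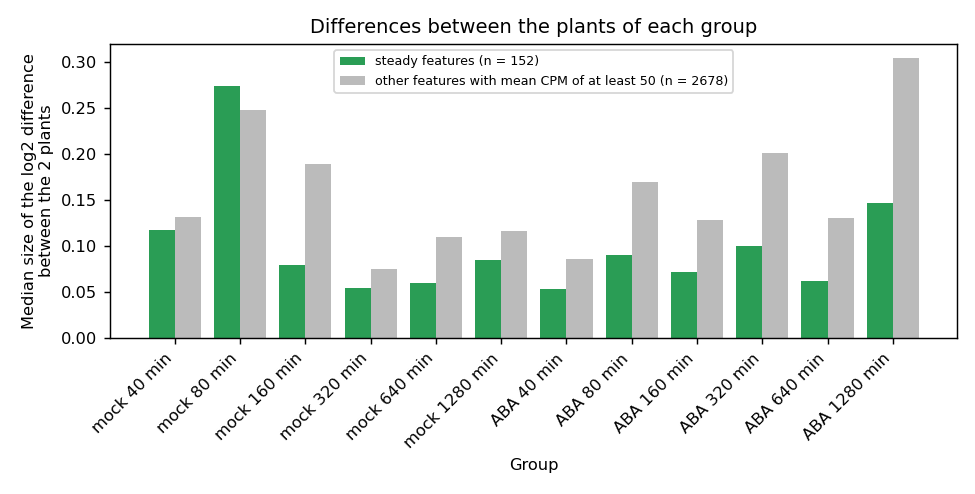
Median size of the log2 difference between the 2 plants of each of the 12 groups, for the 152 steady features (green bars) and the 2678 other features with a mean of at least 50 CPM (grey bars). The steady features have the lower bar in 11 groups, and mock leaves at 80 min are the exception at 0.27 against 0.25.

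Features were also chosen on 1 plant per group and read in the other plant, whose values that choice had not used. With plant 1 of each group alone, 138 features met the same limits. In plant 2, 57 of the 138 (41.3%) again kept within 0.6, against 80 of all 2827 features with a mean of at least 50 CPM in plant 1 (2.83%), and their median range was 0.63 against 1.95. With plant 2 alone, 83 features met the limits, and 75 of them (90.4%) were members. Of the 83, 58 (69.9%) kept within 0.6 in plant 1, against 141 of 2856 (4.94%), with a median range of 0.50 against 1.96. With the mock group of 80 min left out of both plants, as decided after these values were known, plant 1 chose 147 features, of which 95 (64.6%) kept within 0.6 in plant 2, against 4.85% of all. Plant 2 then chose 140, of which 98 (70.0%) kept within 0.6 in plant 1, against 5.22%.

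Steadiness held relative to TMM scaling and did not hold as a share of the reads. The 152 members together took 0.974% and 1.15% of all counts in mock leaves at 40 min, 1.97% and 2.09% in mock leaves at 640 min, and 1.07% and 1.13% in mock leaves at 1280 min. With ABA they took 1.14% and 1.15% at 40 min, 2.47% and 2.39% at 640 min, and 1.68% and 2.04% at 1280 min. The share was highest at night in both treatments, and at 1280 min both ABA plants lay above both mock plants. TMM factors moved alongside, from 0.659 in a mock plant at 40 min to 1.69 in an ABA plant at 640 min.

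With library size as the only scaling, 0 of the 152 members kept within 0.6 log2 units. Their ranges then ran from 0.79 to 1.72 with a median of 1.30, and 145 exceeded 1. The median member lay 0.50 below its own mean in mock leaves at 40 min and 0.73 above it in ABA leaves at 640 min. A different set of 41 features met the limits under that scaling, each with a range of at least 1.12 under TMM. Median-of-ratios scaling kept 146 of the 152 members (96.1%) and upper-quartile scaling kept 114 (75%). The median-of-ratios factors ran from 0.655 to 1.72, near the TMM factors (0.659 to 1.69), so the 96.1% says little about the dependence on scaling. TMM factors computed without the 152 members, an alternative chosen after seeing the data, left 149 of them within the limits. The members are few of the 16461 features that set the factors. Leaving them out could hardly move the factors, so this alternative does not test the dependence on scaling. Which scaling is nearer to RNA per cell was not tested.

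**Figure D4:**
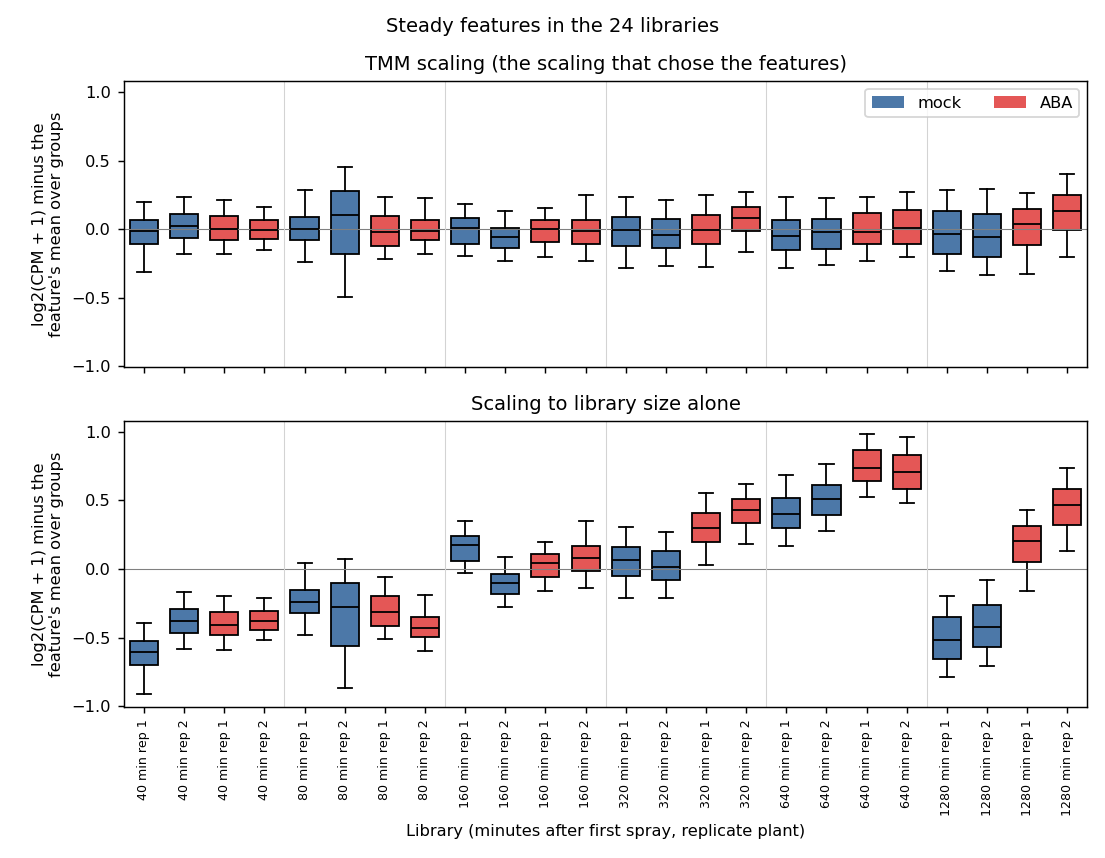
Levels of the 152 steady features in each library as log2(CPM + 1) minus the feature's own mean over the 12 groups; boxes show quartiles, whiskers the 5th to 95th percentile, with mock in blue and ABA in red. Under TMM scaling (top) the medians stay between -0.06 and 0.13 and mock plant 2 at 80 min has the widest box, whereas under library size alone (bottom) the medians run from -0.60 to 0.73.

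The members differed in which of the 12 groups was highest or lowest, which describes the values that chose them. The highest group mean was that of ABA leaves at 1280 min in 32 members, mock leaves at 1280 min in 22 and mock leaves at 80 min in 21. The lowest was that of mock leaves at 1280 min in 34 members and mock leaves at 640 min in 27. ABA leaves at 40 min were the highest group in 2 members and the lowest in 6. No group was the highest or the lowest in more than 34 of the 152 members, and the median member deviated from its own mean by -0.05 in mock and 0.07 in ABA leaves of the next morning.

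For ABA against mock, the differences in members were small by choice, and their intervals give the precision behind them. The 95% interval of each difference, from the replicate SD with 12 degrees of freedom, had a median half-width of 0.24 log2 units in members and 0.37 in the others. That SD is pooled over the 12 groups and was used alike at every harvest. Plants differed unevenly, by a median of 0.27 in mock leaves at 80 min and 0.05 at 320 min. The intervals therefore do not follow the spread of each harvest. In harvest order, the smaller bound of 0.6 log2 units held the interval of 152, 139, 147, 139, 146 and 130 members. The limit on the range also holds the centre of each interval within 0.6, so these counts describe precision under the pooled SD only.

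Calls by edgeR's quasi-likelihood test, adjusted over 17561 features at 0.05, are given beside the share called among all of them. The rule used the same group means, so nothing is read from a low count in members. Shares of all features are not given for DESeq2 or for fits with libraries left out, here and below. Those counts describe dependence on the processing and on single plants, and nothing particular to the members. At 40 min 0 members were called (0.131% of all features), with 0 at an unadjusted p under 0.05 and 0 by DESeq2. At 80 min 0 were called (5.92% of all features), with 19 at an unadjusted p under 0.05 and 3 by DESeq2. Without mock plant 1 at 80 min 26 were called there, and without ABA plant 2 at 1280 min 1 was. The 4 later harvests, in order, had 2 (13.6%), 11 (25.8%), 5 (24.7%) and 30 (45.5%) members called. The count at 320 min was 2 without mock plant 1, 3 without mock plant 2 and 2 without ABA plant 2 of that harvest. At 160 min and at 640 min calls were lost whichever of the 4 libraries of the harvest was left out, which leaves 1 plant in a group. The early and night calls therefore depended on all 4 plants of their harvest.

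Of the 30 members called at 1280 min, 24 were higher with ABA (23.3% of all features were called higher) and 6 were lower (22.2%). Their log2 fold changes ran from -0.59 to 0.61, and the median of all 152 members was 0.11, against 0.06 for all features tested. The count fell to 15 without mock plant 1, 15 without mock plant 2 and 14 without ABA plant 2 of that harvest. With library size alone 148 were called higher (52.7% of all features) and 0 lower, and the median of all features tested moved from 0.06 to 0.74, so the direction is relative to the scaling. In all, 40 members were called at 1 harvest or more (60.9% of all features tested) and 112 at none.

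**Figure D5:**
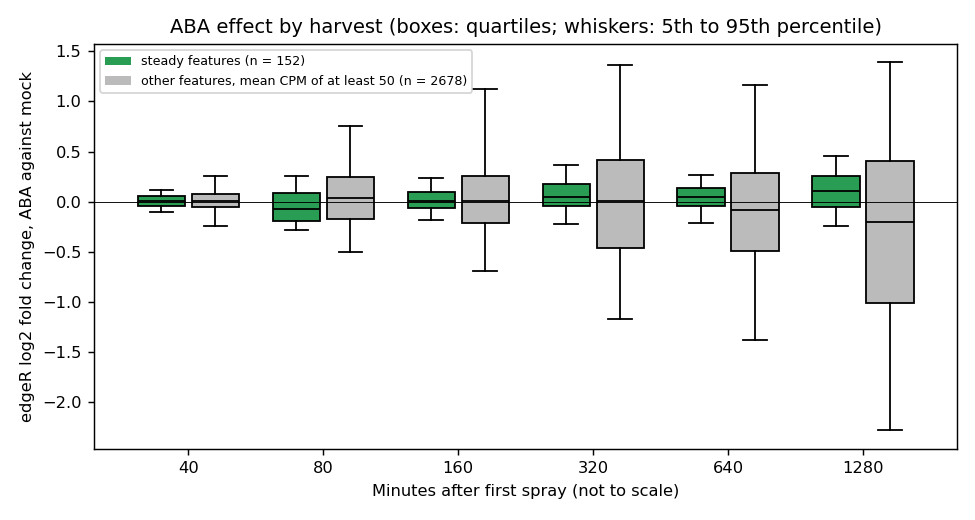
edgeR log2 fold changes of ABA against mock at each harvest for the 152 steady features (green) and the 2678 other features with a mean of at least 50 CPM (grey); boxes show quartiles and whiskers the 5th to 95th percentile. The rule holds the green boxes narrow, and their medians run from -0.07 at 80 min to 0.11 at 1280 min.

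Averaged over the harvests, 27 members were called (45% of all features tested). ABA leaves were higher in 22 of them (22.7% of all features) and lower in 5 (22.3%). Their average log2 fold changes ran from -0.21 to 0.30. The total of 27 was 43 without mock plant 1 at 80 min, 15 without mock plant 2 at 160 min and 17 without mock plant 2 at 320 min. With library size alone 122 were called higher (42.9% of all features) and 0 lower, and the median log2 fold change was then 0.21 over the features tested and 0.24 in members.

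KMT14697 was the member most higher with ABA on average. In mock leaves KMT14697 stood at 114 and 139 CPM at 40 min, 134 and 134 at 80 min, 118 and 109 at 160 min, 110.4 and 117 at 320 min, 127 and 111 at 640 min, and 112 and 109 at 1280 min. With ABA it stood at 132 and 136 CPM at 40 min, 142 and 144 at 80 min, 173 and 152 at 160 min, 150.0 and 151 at 320 min, 138 and 132 at 640 min, and 156 and 159.7 at 1280 min. The ABA plants lay above both mock plants at 5 of the 6 harvests and overlapped them at 40 min. Its average log2 fold change was 0.30 ± 0.05 (SE), and it was called at 160, 320 and 1280 min. KMS97878 was next, at 52.6 ± 7.11 CPM in mock and 62.0 ± 5.42 CPM in ABA leaves (SD, n = 12 each over 6 harvests), with an average log2 fold change of 0.24 ± 0.06 (SE) and no harvest called by itself.

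KMT04603 was the member most lower with ABA on average, with a log2 fold change of -0.21 ± 0.04 (SE) under TMM and of -0.00 with library size alone. Its mock values were 93.2 and 90.2 CPM at 40 min, 80.7 and 90.8 at 80 min, 64.9 and 70.2 at 160 min, 95.5 and 93.2 at 320 min, 86.4 and 79.8 at 640 min, and 100.5 and 96.2 at 1280 min. With ABA KMT04603 stood at 93.1 and 88.8 CPM at 40 min, 82.8 and 77.5 at 80 min, 65.5 and 69.1 at 160 min, 65.0 and 66.9 at 320 min, 65.3 and 65.8 at 640 min, and 84.8 and 76.2 at 1280 min. Mock and ABA plants shared the low level of 160 min, and from 320 min on the ABA plants lay below both mock plants, with calls at 320, 640 and 1280 min. KMT18808 stood at 91.7 ± 12.1 CPM in mock and 81.3 ± 10.8 CPM in ABA leaves (SD, n = 12 each over 6 harvests), with an average of -0.17 ± 0.06 (SE) that turned to 0.034 with library size alone. Its call was lost without any one of mock plant 2 at 160 min, mock plant 1 at 320 min, ABA plant 2 at 640 min and mock plant 1 at 1280 min (edgeR adjusted p from 0.051 to 0.0637).

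Differences between harvests were also called within the members. Among the mock harvests 70 of the 152 members were called (80.5% of all features tested), and for any difference among the 12 groups 89 were called (87.8%). The 89 had a median range of 0.53 and a median replicate SD of 0.096, and the 63 others had 0.43 and 0.130, both of which enter the test itself. The ABA effect differed between harvests in 9 members (36.4% of all features tested).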

How the data were processed

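Each of the 24 libraries is a list of counts of reads per feature as deposited by the authors, without normalisation, and unlisted features were taken as 0 counts. Per the labels' protocols, libraries were stranded and polyadenylated. Tools named in the submitters' processing notes are CASAVA, Trimmomatic and DESeq2. The aligner, the reference, the counter and its use of strand were not given in the sources used here. Near-identical or overlapping features may therefore share reads. Groups follow the labels, whose conditions and replicates the submitters corrected after deposit, per the series record.

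CPM with TMM factors came from features with a mean count of at least 10, and the pseudocount was 1. Tests used edgeR 4.0.16 in R 4.3.3: a quasi-likelihood model over all 24 libraries with 1 mean per group, 12 residual degrees of freedom, a filter by group (minimum count 10) that left 17561 features, all 152 members among them, and Benjamini-Hochberg adjustment. SE restates the F-test, as the size of the change over the root of F. DESeq2 1.42.0 was an alternative. Scripts were tested on simulated data. Replicate pairs differed by at least 5.43 in chi-square per degree of freedom, so none was counted as a repeat of another. Plants are separate, as the series record states.

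The members and lists were chosen with earlier results of these data known. Named features are at most 2 each for the smallest range, the highest level, both sides of the 2 limits, the highest and lowest average ABA effect among those called, and the extremes of replicate SD. The list of plant reference genes by symbol matched 0 identifiers and was not used.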

Additional observations from a re-analysis of the deposited data

Results flagged for a closer look

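The ABA effect differed between harvests in 9 of the 152 steady features by edgeR's test of the interaction (36.4% of all features tested). All 152 were held within 0.6 log2 units by the rule, which read the same group means, so nothing is read from the low count. This count ran from 2 without mock plant 2 at 1280 min to 29 without mock plant 1 at 80 min, and it moved by more than 1.5 times for 15 of the 24 libraries left out.

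KMS97335, named after its values were seen, had the smallest adjusted p of the 9 (edgeR interaction adjusted p = 0.00465). Its log2 fold change with ABA was -0.23 at 80 min and 0.61 at 1280 min, and it was called at 320, 640 and 1280 min. For KMT04603 (edgeR interaction adjusted p = 0.0467) the log2 fold change was -0.01 at 40 min and at 160 min, and -0.51 at 320 min. Of the 9 features, 6 had their widest ABA difference at 1280 min, 2 at 320 min and 1 at 640 min. The same split over all features is not given. ABA against mock was also called most often at 1280 min over all features, in 45.5%, against 25.8% at 320 min and 24.7% at 640 min. Nothing particular to the members is read from the split.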

How the results depend on the processing

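Scaling and the rule's own limits moved the membership most. The number of steady features was 41 with library size alone (0 of them members), 329 with a mean of at least 25 CPM, 40 with at least 100 CPM, 79 with a range of at most 0.5, 314 with a range of at most 0.8, and 82 with replicate 2 libraries only and scaling recomputed. The other 8 alternatives gave 137 to 150, and leaving out each library gave 118 to 159. The median replicate SD stayed between 0.087 and 0.141 in its 9 alternatives.

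For ABA against mock the counts of members called were, with library size alone, 1, 41, 12 and 148 at the 4 later harvests in order and 122 on average, with 99 for the interaction, 152 among mock harvests and 152 among the 12 groups. At an adjusted p of 0.01 they were 1, 3, 0, 14 and 12, with 2, 36 and 39. DESeq2 called 3 at 80 min, 18 at 320 min, 8 at 640 min and 17 for the interaction. Fits to single harvests called 0 at 160 min, 9 at 640 min and 7 at 1280 min. Without both replicate 2 libraries of 320 min there were 0 at 320 min, 13 on average and 4 for the interaction, and with no filter beyond 1 count 5 for the interaction. With library size alone 52.7% of all features were called higher at 1280 min and 42.9% on average. Shares of all features are not given for the other alternative counts, here and in the next paragraph. Those counts describe dependence on the processing and nothing particular to the members. The cause of the shifts was not tested.

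Leaving out each library gave 0 to 0 calls at 40 min and 0 to 26 at 80 min, then 0 to 3, 2 to 15, 0 to 5 and 14 to 41 at the later harvests in order, 15 to 43 on average, 2 to 29 for the interaction, 50 to 98 among mock harvests and 64 to 122 among the 12 groups. Replicate numbers were not taken to pair the plants of a harvest, since deviations of mock and ABA plants correlated at -0.14 to 0.13 across all features, and in members at -0.16 to 0.12 at 5 harvests and at 0.40 at 80 min. With a replicate block the calls at the 6 harvests in order were 0, 0, 1, 6, 2 and 20, with 19 on average and 2 for the interaction.

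The average log2 fold change of KMT18808 turned to 0.034 with library size alone (edgeR adjusted p = 0.674, the highest of its alternatives). Its call was also lost at a threshold of 0.01 (0.0221), without both replicate 2 libraries of 320 min (0.0525) and without each of 4 single libraries (edgeR adjusted p from 0.051 to 0.0637). KMT14697 and KMS97878 kept their direction and their calls in all 32 alternatives run for them, and KMT04603 lost its call only with library size alone (edgeR adjusted p = 0.991). With 2 plants per group, differences below about 0.24 log2 units could not be resolved at a single harvest for a member of median replicate SD. By their replicate SD, the half-width ran from 0.08 in KMT01180 to 0.50 in KMS98186, the members with the lowest and the highest SD. These half-widths are not the resolution of edgeR's test, which estimates spread in another way. For KMT01180 at 1280 min its log2 fold change was -0.22 ± 0.14 (SE), which was not called.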
